A study of Mus musculus with 6 samples.

Results

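The mRNAs of the mitochondrial respiratory chain were examined in thymic iNKT1 cells, the T-bet-expressing subset of invariant natural killer T cells, by RNA-seq. Members were the protein-coding genes of the table whose symbols name a subunit of NADH dehydrogenase, succinate dehydrogenase, cytochrome c reductase, cytochrome c oxidase or ATP synthase, in the mitochondrial genome (symbols starting with mt-) or in the nucleus. They numbered 96 of the 17985 genes, of which 11 were mitochondrially encoded and 85 nuclear. The members were chosen by symbol and biotype, with no level or fold change in the pattern. The comparison of mitochondrial with nuclear genes within same-numbered libraries, however, was selected on the CPM values of these libraries, with earlier results known. It is given as a description, without a test.

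All cells came from thymus of untreated C57BL/6 mice carrying the Tbx21CreTg transgene, which drives Cre in cells that express Tbx21, and the Rosa26-LSL-YFP reporter (+/+). The Ctrl group (3 libraries, WT in the table) carried nothing further, and the cKO group (3 libraries, KO in the table) also carried loxP-flanked Tgfbr2 (Tgfbr2F/F), which encodes a TGF-beta receptor subunit. The ages of the mice, and whether libraries with the same number share a litter or day, were not given in the sources used here, so the spread between libraries may be partly technical. Library totals ran from 28832779 to 68092478 reads, and values are in CPM, the share of a library's reads on a fixed scale that corrects for depth, on which 1 read was worth 0.0147 to 0.0347 CPM. Both replicate 3 libraries stood apart: they were the deepest of their groups, yet listed 4406 (Ctrl) and 4590 (cKO) genes at 0 against 0 to 5 in the other 4 libraries. Tgfbr2 itself averaged 449 ± 20.7 CPM in the Ctrl libraries against 274 ± 16.1 CPM where it was floxed (SD, n = 3 each; limma adjusted p 0.0207). Wherever 3 values of a group are listed, they stand in the order of replicates 1, 2 and 3.

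The respiratory chain passes electrons from NADH (complex I) and succinate (complex II) through complex III to oxygen at complex IV, and the proton gradient built on the way drives ATP synthase (complex V). Complexes I, III, IV and V join a few core subunits made inside the mitochondrion from its own DNA with many subunits encoded in the nucleus and imported, whereas complex II is wholly nuclear. Mitochondrial mRNAs are cut from long transcripts that span most of the circular genome, nearly all of them from the same strand, while mt-Nd6 lies on the other.

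Among the 96 genes, mt-Nd3 was the only one past the threshold of a limma adjusted p of 0.05. It encodes a small membrane subunit of complex I and lies on the mitochondrial genome (chromosome M, 9459 to 9806, plus strand, GRCm38). The nuclear genome holds a near copy of a stretch of mitochondrial DNA on chromosome 1, and the table lists 5 pseudogenes from it. The pseudogene matching mt-Nd3 is Gm28438 (ENSMUSG00000101939, chromosome 1, 24612775 to 24613119, minus strand). Over the 345 bases that the annotation gives to Gm28438 the reference sequences differ at 1 base, T3C, where the base of mt-Nd3 comes first, positions count from 1 at the 5′ end of mt-Nd3, and the base of Gm28438 comes last. Position 3 is chromosome M 9461 and chromosome 1 24613117. The first 75 bases of each, which is the read length, are shown 5′ to 3′ because they hold the only base at which the annotated copy differs; they come from the GENCODE release M21 transcripts on GRCm38, with the differing base in capitals (chrM:9459-9533, plus strand, and chr1:24613045-24613119, minus strand).
mt-Nd3: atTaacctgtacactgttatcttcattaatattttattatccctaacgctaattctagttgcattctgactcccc
Gm28438: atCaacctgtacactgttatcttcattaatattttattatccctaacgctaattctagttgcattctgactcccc

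Of the 274 windows of 75 bases that lie wholly inside mt-Nd3, 268 (97.8%) occur unchanged in Gm28438, so that only 6 windows belong to mt-Nd3 alone. Of these, 3 cover position 3 and the other 3 reach bases beyond the annotated end of Gm28438. A read from the shared windows cannot be placed at one locus. Reads that start before the annotated gene and reach this base are not covered by the window count.

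mt-Nd3 and Gm28438 exchanged places between the groups. mt-Nd3 was read at 0.149, 0.162 and 0.246 CPM in Ctrl (5, 5 and 13 reads) and at 7.84, 7.92 and 5.89 CPM in cKO (226, 333 and 401 reads). Every cKO library was above every Ctrl library. Gm28438 was read at 13.9, 12.1 and 10.3 CPM in Ctrl (469, 373 and 545 reads) and at 0.139, 0.167 and 0.147 CPM in cKO (4, 7 and 10 reads). There the 3 cKO values were all lower than the 3 Ctrl values.

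mt-Nd3 averaged 0.186 ± 0.0524 CPM over the Ctrl libraries and 7.22 ± 1.15 CPM over the cKO libraries (SD, n = 3 each), a 38.9-fold higher mean. Within same-numbered libraries the ratio was 52.7-fold, 48.8-fold and 24.0-fold in replicates 1 to 3. The log2 fold change after adding 1 CPM to each value, which shrinks the change of genes this low, was 2.78 (standard error 0.383, limma adjusted p 0.0352). With the replicate number as a block the limma adjusted p was 9.41e-05. It passed in replicates 1 and 2 alone as well (limma adjusted p 0.00111). Leaving out any single library ended the call: the limma adjusted p was 0.142, 0.185 and 0.129 when Ctrl replicate 1, 2 or 3 was omitted and 0.167, 0.309 and 0.0532 when cKO replicate 1, 2 or 3 was omitted, while the log2 fold change stayed between 2.72 and 2.91. The authors' deposited table gives mt-Nd3 as 5.29 on the log2 scale with an adjusted p of 0.0771, and Gm28438 as -6.22 with an adjusted p of 0.00118. Gm28438 fell from 12.1 ± 1.83 to 0.151 ± 0.0143 CPM (SD, n = 3 each), which is -3.50 on the log2(CPM + 1) scale (limma adjusted p 0.0122).

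**Figure D1:**
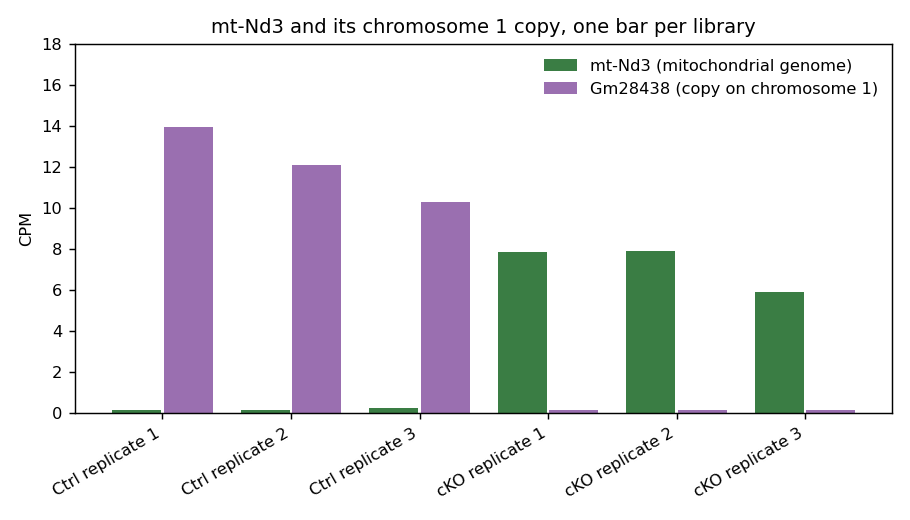
CPM of mt-Nd3 (green) and of its chromosome 1 copy Gm28438 (purple) in each of the 6 libraries, one bar per gene and library. The copy holds nearly all reads of the pair in the 3 Ctrl libraries and mt-Nd3 holds nearly all of them in the 3 cKO libraries.

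Taking the reads of both loci together, mt-Nd3 held 1.05%, 1.32% and 2.33% of them in Ctrl and 98.3%, 97.9% and 97.6% in cKO. The exact 95% binomial intervals, which cover counting error only, ran from 0.343% to 3.95% over the Ctrl libraries and from 95.6% to 99.5% over the cKO libraries. The sum of both loci was 14.1, 12.3 and 10.5 CPM in Ctrl and 7.98, 8.09 and 6.04 CPM in cKO. It was thus lower in every cKO library, at 56.6%, 65.9% and 57.3% of the same-numbered Ctrl library. Reads from the shared windows may be missing from this sum, and the private windows number 6 in mt-Nd3 and 3 in Gm28438. The sum therefore compares counted reads and not the whole output of the loci. The difference between groups in mt-Nd3 therefore stood beside an opposite difference at the copy, and what the reads of either locus derive from was not tested.

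The same copy covers 3 other mitochondrial genes at full length. mt-Co2 and mt-Co3, core subunits of cytochrome c oxidase, shared 99.5% and 99.9% of their 75-base windows with Gm28661 and Gm28437, and mt-Atp6, a membrane subunit of ATP synthase, shared 99.5% with Gm10925. These 3 mRNAs and mt-Nd3 had the lowest levels among the 11, with every library under 8 CPM. Reads from shared windows may be missing from their counts, so their levels are not comparable with those of the other mitochondrial genes. Gm28661, Gm28437 and Gm10925 have 0 windows of their own, yet reads were counted to each in every library. Which windows the counted reads of these genes and copies come from was not tested. mt-Nd4 shared 61.5% of its windows with 1 other gene and mt-Co1 shared 39.8% with 2 other genes, so their levels are uncertain as well. mt-Nd5 and mt-Nd6 overlap on opposite strands, and strand-specific counting was not stated.

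mt-Cytb, the only mitochondrially encoded subunit of complex III (chromosome M, 14145 to 15288), had the highest CPM of the 11 in every library. It was at 804, 802 and 838 CPM in Ctrl and at 748, 747 and 433 CPM in cKO. All 3 cKO libraries were below all 3 Ctrl libraries, but replicates 1 and 2 differed little from Ctrl and cKO replicate 3 stood far below. The means were 815 ± 20.5 and 643 ± 181 CPM (SD, n = 3 each). On the log2 scale the difference was -0.39 (standard error 0.213), which did not pass (limma adjusted p 0.345 with the block).

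The other complex I mRNAs of the mitochondrial genome showed the same picture. mt-Nd1, a membrane subunit near the quinone site, was at 322, 317 and 389 CPM in Ctrl and at 301, 303 and 167 CPM in cKO. mt-Nd2 was at 112, 116 and 121 CPM in Ctrl and at 108, 101 and 61.0 CPM in cKO. mt-Nd4 was at 132, 130 and 143 CPM in Ctrl and at 129, 123 and 71.3 CPM in cKO. In each of these 3 genes, whose products sit in the membrane arm, the groups did not overlap, and cKO replicate 3 was the lowest library by a wide margin.

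mt-Nd5 was at 292, 294 and 268 CPM in Ctrl and at 275, 262 and 123 CPM in cKO, so that its groups overlapped. mt-Nd6, the member on the other strand, was at 26.5, 27.0 and 24.3 CPM in Ctrl and at 25.7, 21.1 and 13.6 CPM in cKO, also with overlap. The gene on the opposite strand thus had its lowest value in the same library as the others. Over the 5 complex I mRNAs other than mt-Nd3, the median log2 fold was -0.060 in replicate 1, -0.17 in replicate 2 and -0.998 in replicate 3.

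mt-Co1, the catalytic subunit of cytochrome c oxidase, did not follow this order. It was at 397, 224 and 195 CPM in Ctrl and at 363, 305 and 231 CPM in cKO. The groups overlapped, cKO was lower in replicate 1 and higher in replicates 2 and 3, and the lowest library was Ctrl replicate 3. Its means were 272 ± 109 and 299.7 ± 66.2 CPM (SD, n = 3 each), or 0.19 on the log2 scale (limma adjusted p 0.578 with the block).

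The 3 low mRNAs differed from the rest in replicate 2. mt-Co3 was at 5.17, 6.30 and 5.44 CPM in Ctrl and at 4.75, 3.62 and 3.36 CPM in cKO, without overlap. mt-Atp6 was at 3.21, 3.93 and 3.02 CPM in Ctrl and at 2.91, 2.28 and 1.72 CPM in cKO, without overlap. mt-Co2 was at 2.20, 2.86 and 2.83 CPM in Ctrl and at 2.39, 1.48 and 1.15 CPM in cKO, with overlap. Their folds in replicate 2 (log2 -0.66, -0.59 and -0.64) were close to those in replicate 3 (-0.56, -0.57 and -0.84). The chromosome 1 copies of these 3 genes had lower means in cKO as well. Gm28437 averaged 5.42 CPM in Ctrl and 4.32 CPM in cKO, Gm10925 4.63 and 3.05 CPM, and Gm28661 2.56 and 1.97 CPM. None of these copies passed.

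**Figure D2:**
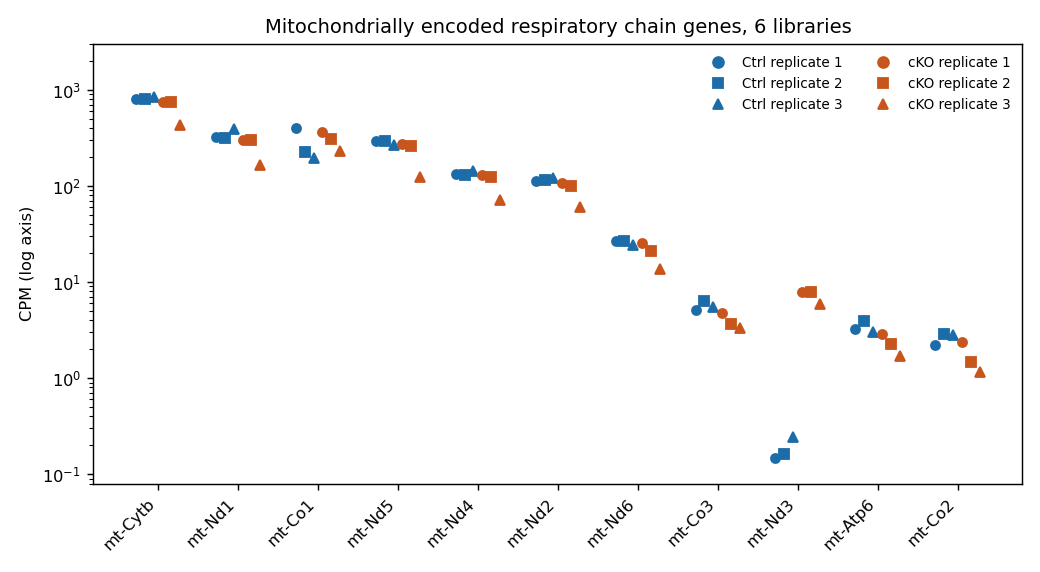
CPM (log axis) of the 11 mitochondrially encoded members in each library, in order of their mean; blue points are Ctrl, orange points cKO, and circles, squares and triangles replicates 1, 2 and 3. cKO replicate 3 (orange triangle) is the lowest library for 9 of the 11 genes, the exceptions being mt-Co1 and mt-Nd3.

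Counted over the 11 mitochondrial genes, 9 were lower and 2 higher in cKO, and the groups did not overlap for 6 that were lower and for mt-Nd3. Of the 15691 tested genes in all, 104 or 0.663% passed without the block (0.204% higher and 0.459% lower in cKO), and 451 or 2.87% passed with it. All 3 cKO libraries were below all 3 Ctrl libraries for 7.10% of them. Genes with equal values in replicate 3 are in the base of this share and cannot count in it. The same holds for every share of all tested genes without overlap or with 1 direction in all 3 pairs. Among tested genes with at least 10 CPM, grouped by transcript length, the share lower without overlap ran from 6.78% to 11.4%. cKO replicate 3 was the lowest of the 6 libraries for 9 of the 11 mitochondrial genes, against 32.1% of all tested genes, and it was below Ctrl replicate 3 for 9 of the 11, against 49.4%. The 10 genes other than mt-Nd3 did not pass in any fit run here. The median log2 fold change of the 11 was -0.41, against -0.038 over all tested genes. It was -0.13 when replicates 1 and 2 were fitted alone and -0.15 without cKO replicate 3, so its size turned on that library. By same-numbered libraries the median was -0.084, -0.17 and -0.84 in replicates 1 to 3. In bulk RNA, fewer transcripts per cell and a changed mix of cells cannot be told apart.

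Summed over the 11 genes, the counted reads of mitochondrial mRNA came to 2097, 1923 and 1991 CPM in Ctrl and 1968, 1878 and 1112 CPM in cKO. cKO stood at 93.8%, 97.6% and 55.9% of the same-numbered Ctrl library. Without mt-Co1, the sum of the other 10 stood at 94.4%, 92.5% and 49.1%. The mitochondrial ribosomal RNAs mt-Rnr1 and mt-Rnr2, which are not members, summed to 1339, 1424 and 1335 CPM in Ctrl and to 1338, 1199 and 822 CPM in cKO. They stood at 99.9%, 84.2% and 61.6% of Ctrl. Messenger and ribosomal RNA of the mitochondrial genome were thus both lowest in cKO replicate 3.

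The nuclear members went the other way in that library. The 85 genes summed to 10858, 10814 and 11795 CPM in Ctrl and to 10612, 10580 and 13764 CPM in cKO, or 97.7%, 97.8% and 116.7% of the same-numbered Ctrl library. The ratio of mitochondrial to nuclear sums was 0.193, 0.178 and 0.169 in Ctrl and 0.185, 0.177 and 0.0808 in cKO. In replicate 2 the ratio in cKO was 99.8% of that in Ctrl, and in replicate 3 it was 47.9%. The replicate 2 ratio includes mt-Co1, which was higher in cKO there. The difference between the median log2 folds of mitochondrial and nuclear genes was -0.045, -0.15 and -1.11 in replicates 1 to 3, so a gap between the genomes was present in replicate 3 and small in the other pairs.

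**Figure D3:**
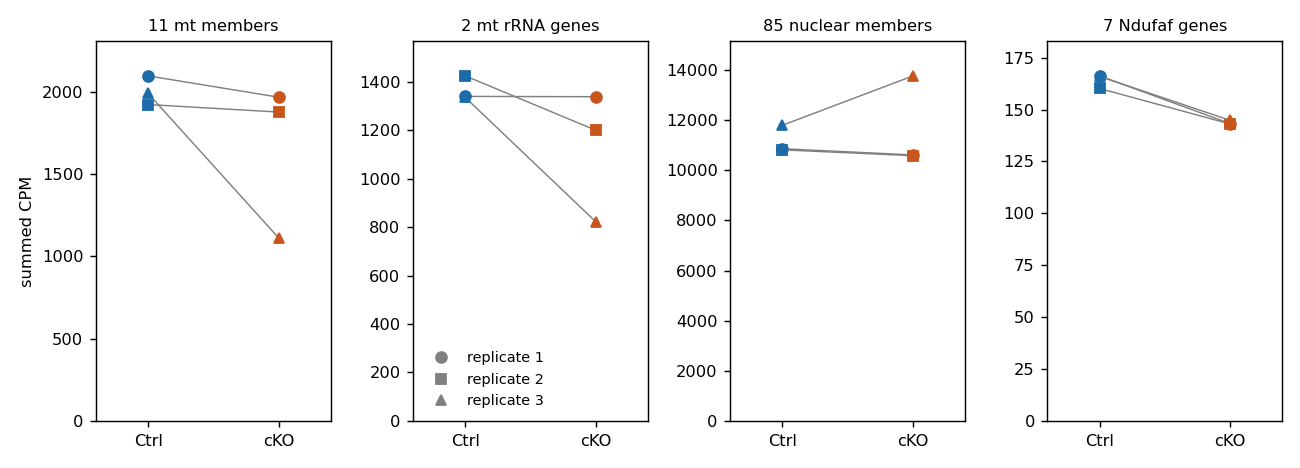
Summed CPM in Ctrl and cKO of the 11 mitochondrially encoded members, the 2 mitochondrial rRNA genes, the 85 nuclear members and the 7 Ndufaf assembly factor genes; each line joins the same-numbered libraries and each axis starts at 0. The replicate 3 line drops steeply for both mitochondrial sums and climbs for the nuclear sum, while all 3 lines drop to 143 to 145 CPM for the Ndufaf genes.

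Of the 85 nuclear members, 84 reached a mean of 1 CPM and entered the test, and none passed without or with the block. An unadjusted limma p under 0.05 was reached by 3 of the 84 without the block (Ndufv1, Ndufaf7 and Atp5l). Of all 15691 tested genes, 944 reached it. Neither edgeR's quasi-likelihood test nor DESeq2 called a nuclear member. The untested one was Cox7b2, a germ-cell form of a complex IV subunit, at 1.84, 1.30 and 0 CPM in Ctrl and 1.73, 0.642 and 0 CPM in cKO. The fitted median was 0.065, with 59 higher and 25 lower, and it turned to -0.029 in replicates 1 and 2 alone and to -0.070 without cKO replicate 3. In replicate 3, 70 of the 84 (83.3%) were higher in cKO, where 33.7% of all tested genes were higher, 49.4% lower and the rest equal. cKO replicate 3 was the highest of the 6 libraries for 67 of the 84 (79.8%), against 15.9% of all tested genes. Short expressed genes as a whole, a set that includes the short members, went the same way with smaller shares. The nuclear members have a median transcript of 963 bases, and of all tested genes with at least 10 CPM and transcripts up to 1000 bases, 70.3% were higher in cKO in replicate 3 and 62.8% were highest in cKO replicate 3. For transcripts of 1000 to 2000 bases these shares were 50.9% and 41.9%. In replicates 1 and 2, 31 and 30 of the 84 were higher in cKO.

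**Figure D4:**
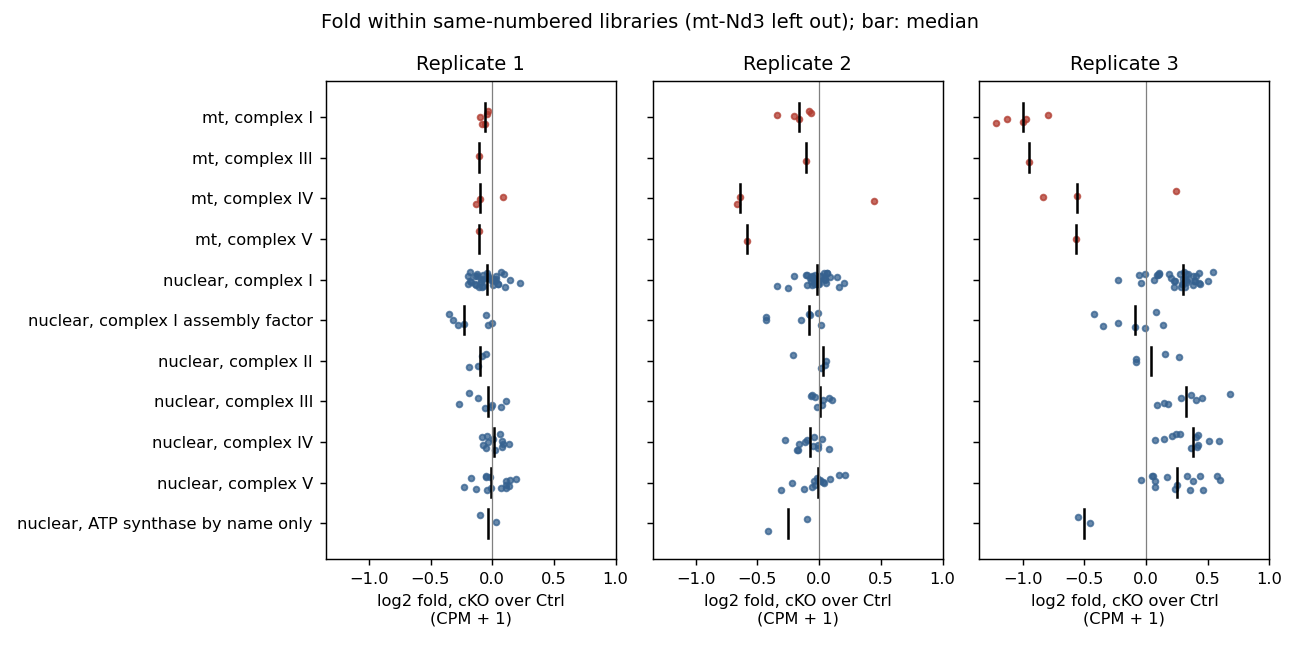
Log2 fold of cKO over Ctrl on the log2(CPM + 1) scale within replicates 1, 2 and 3 (panels), 1 point per tested gene, for mitochondrial (red) and nuclear (blue) members by complex; black bars are medians and mt-Nd3 is left out. Most classes lie near 0 in replicate 1, where the complex I assembly factors lie left of 0. The low mitochondrial mRNAs of complexes IV and V shift left in replicate 2. In replicate 3 the mitochondrial medians lie left of 0 and those of nuclear complexes I, III, IV and V right of it.

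Complex I has 36 nuclear members, and their median log2 fold by pair was -0.040, -0.014 and 0.30 in replicates 1 to 3. Ndufv1, which carries the FMN that accepts electrons from NADH (chromosome 19, 4007497 to 4012806, minus strand), was at 118, 119.6 and 127 CPM in Ctrl and at 103, 94.0 and 108 CPM in cKO. The 3 cKO values were all lower than the 3 Ctrl values. On the log2 scale the difference was -0.26 (95% interval from -0.47 to -0.045), and it did not pass (limma adjusted p 0.629, or 0.227 with the block). Ndufb2, an accessory subunit of the membrane arm, had the highest fold of complex I with a log2 fold change of 0.23 (limma adjusted p 0.920) and was at 44.7, 49.1 and 45.3 CPM in Ctrl and at 52.4, 50.6 and 61.6 CPM in cKO. The groups did not overlap there, as was also the case for the accessory subunits Ndufs4 and Ndufv3, picked out after their values were seen.

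Complex II, the enzyme shared with the citric acid cycle, had pair medians near 0. Sdha, the flavoprotein that oxidises succinate (picked after its values were seen), was at 394, 363 and 359 CPM in Ctrl and at 363, 375 and 340 CPM in cKO. Sdhb, the iron-sulfur subunit, was at 171, 171 and 205 CPM in Ctrl and at 161, 178 and 228 CPM in cKO, with a log2 fold change of 0.040. The membrane anchor Sdhc was at 74.7, 76.3 and 80.5 CPM in Ctrl and at 72.1, 65.9 and 76.0 CPM in cKO, with a log2 fold change of -0.11. The groups overlapped for each, and the median of the 4 genes was -0.10, 0.031 and 0.037 in replicates 1 to 3.

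In complex III the 8 nuclear members had medians of -0.035, 0.0030 and 0.32 in replicates 1 to 3. Uqcrh, the hinge protein, was at 103, 99.4 and 109 CPM in Ctrl and at 102, 107 and 175 CPM in cKO, so that its mean difference came from cKO replicate 3. Uqcrfs1, the Rieske iron-sulfur protein, was at 101, 86.1 and 98.1 CPM in Ctrl and at 84.1, 82.5 and 109 CPM in cKO, with overlap. All 8 were highest in cKO replicate 3.

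Complex IV, with 12 tested nuclear members (Ndufa4 counted here, since it is known as a subunit of this complex), had medians of 0.013, -0.075 and 0.38. Cox4i1, the broadly expressed form of subunit IV, was at 325, 320 and 386 CPM in Ctrl and at 326, 318 and 518 CPM in cKO. Cox7a2 had the highest fold of the complex and was at 109, 115 and 116 CPM in Ctrl and at 107, 117 and 175 CPM in cKO. Cox5a, a matrix-side subunit with the lowest fold, was at 113, 127 and 126 CPM in Ctrl and at 106, 105 and 145 CPM in cKO. All 12 were highest in cKO replicate 3 and overlapped between the groups.

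Complex V had 15 nuclear members with medians of -0.0096, -0.012 and 0.25. Atp5b, the catalytic beta subunit, was at 1175, 1170 and 1343 CPM in Ctrl and at 1168, 1141 and 1393 CPM in cKO. Its log2 fold change was 0.0025 with a 95% interval from -0.26 to 0.26. Atp5a1, its partner in the catalytic ring, was at 817, 805 and 894 CPM in Ctrl and at 796, 798 and 925 CPM in cKO, with an interval from -0.22 to 0.22. The catalytic subunits thus followed the replicate number more than the group.

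Atp5l, a small membrane subunit, was at 35.3, 33.8 and 31.5 CPM in Ctrl and at 38.8, 39.3 and 47.4 CPM in cKO, without overlap. Its log2 fold change was 0.31 with a 95% interval from 0.028 to 0.58, and it did not pass (limma adjusted p 0.721, 0.355 with the block). Of its 75-base windows 76.0% occur in other genes, so its level is uncertain. Atp5e, the epsilon subunit, was at 152, 156 and 148 CPM in Ctrl and at 174, 160 and 225 CPM in cKO, also without overlap (limma adjusted p 0.976). Atp5g1, a gene of the c-ring subunit, had the lowest fold of complex V at 103, 108 and 99.9 CPM in Ctrl and 91.6, 92.3 and 105 CPM in cKO, with overlap.

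Over all 84 tested nuclear members the groups did not overlap for 7. Of these, 5 were higher (5.95%; 3.89% of all tested genes) and 2 lower (2.38%; 7.10% of all tested genes). Among tested genes with at least 10 CPM, grouped by transcript length, 4.84% to 6.39% were higher and 6.78% to 11.4% lower without overlap. The share of nuclear members that were higher thus lay inside the range for such genes.

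The complex I assembly factors named Ndufaf, which help build the complex and are not part of it, mostly did not share the high values of cKO replicate 3. Of the 7, 1 was highest there, Ndufaf2. Their median transcript, at 1478 bases, was longer than that of the nuclear members. The 7 genes summed to 166.2, 160.1 and 165.9 CPM in Ctrl and to 143.2, 143.0 and 144.8 CPM in cKO. cKO stood at 86.2%, 89.3% and 87.2% of Ctrl in replicates 1 to 3, and the sums did not overlap. Gene by gene, all cKO values were below all Ctrl values for 1 of the 7 (14.3%), against 7.10% of all tested genes. Of the 7, 5 were lower in cKO in all 3 pairs (71.4%), which held for 18.5% of all tested genes. Among tested genes with at least 10 CPM, grouped by transcript length, it held for 15.9% to 24.9%. Some of the 5 had pair differences near 0. Ndufaf5 was at log2 -0.00020 in replicate 1, and Ndufaf1 at -0.013 and -0.0095 in replicates 2 and 3. The median log2 fold change of the 7 was -0.17, and none passed.

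Ndufaf7, a methyltransferase acting on a complex I subunit (chromosome 17, 78937135 to 78948052), had the lowest fold of the 7 and was at 34.1, 37.1 and 38.1 CPM in Ctrl and at 32.9, 27.4 and 28.2 CPM in cKO. The groups did not overlap, with a log2 fold change of -0.30, a 95% interval from -0.57 to -0.027 and a limma adjusted p of 0.723. Ndufaf5 was at 13.9, 12.3 and 12.9 CPM in Ctrl and at 13.9, 10.9 and 12.1 CPM in cKO, with overlap. The genes Atp5s and Atp5sl carry the ATP synthase name without being core subunits, and both were lower in cKO (log2 fold changes -0.28 and -0.25), without passing.

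Levels per transcript length were compared over the mean of all 6 libraries. The length was that of the longest coding transcript tagged as principal in GENCODE M21, or else of the longest coding transcript. Where this transcript is long the level per length is low, as for Ndufb2 (4371 bases, 11.6 CPM per kb) and Atp5g1 (4715 bases, 21.2 CPM per kb). The 6 highest nuclear genes were Atp5b at 643 CPM per kb, Cox8a at 560, Cox4i1 at 478, Cox6a1 at 404, Atp5e at 402 and Atp5a1 at 340 CPM per kb. mt-Cytb at 637 CPM per kb lay between the first and the second of these, and mt-Nd1 at 313 CPM per kb just under the sixth. Cox8a was at 288, 311 and 306 CPM in Ctrl and at 301, 274 and 370 CPM in cKO, and Cox6a1, a broadly expressed form, at 212, 226 and 237 CPM in Ctrl and at 224, 202 and 281 CPM in cKO. Both overlapped between the groups.

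Median levels per length rose from 88.1 CPM per kb for nuclear complex I through 125 for complex II, 149 for complex III and 172 for complex V to 228 CPM per kb for nuclear complex IV, with wide ranges inside each. The Ndufaf genes lay far lower, between 8.04 and 22.4 CPM per kb. The mitochondrial members spanned 3.14 to 637 CPM per kb, nearly as wide as the range of the nuclear ones. The low end, mt-Co2, shares nearly all of its windows with a copy. Reads counted to the 11 mitochondrial members made up 0.192% to 0.210% of the reads in Ctrl and 0.111% to 0.197% in cKO. For the nuclear members the shares were 1.08% to 1.18% and 1.06% to 1.38%. Reads from windows shared with copies may be missing from the mitochondrial share, and mt-Atp8 and mt-Nd4l are not in it. The shares therefore do not compare amounts of mitochondrial and nuclear mRNA.

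**Figure D5:**
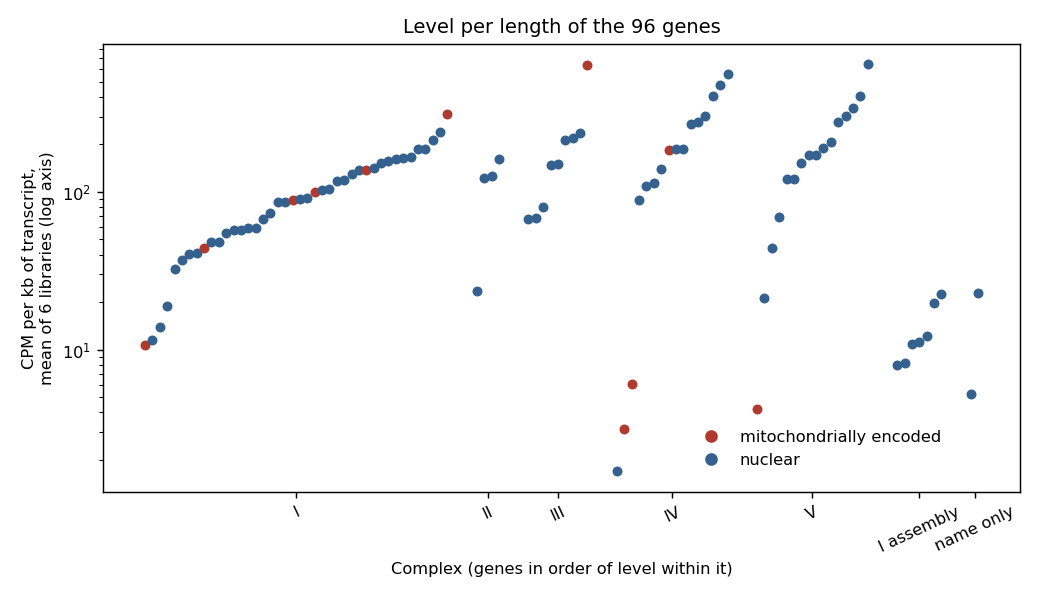
Mean level of each of the 96 genes over the 6 libraries in CPM per kb of transcript (log axis), ordered by level within each complex, for mitochondrial (red) and nuclear (blue) genes. The highest genes are Atp5b and mt-Cytb, and mt-Co2, mt-Co3 and mt-Atp6 lie below the nuclear subunits of their complexes except Cox7b2.

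Transcript length went along with the replicate 3 difference. Over the 84 nuclear members, Spearman's rho between length and the log2 fold was -0.38, -0.079 and -0.58 in replicates 1 to 3, and over the 8731 tested genes with at least 10 CPM it was 0.14, 0.011 and -0.19. These are descriptions across genes of the same libraries, and genes are not independent replicates. Cytosolic ribosomal protein genes, short and abundant as well and picked after the data were seen, had a median log2 fold of 0.32 in replicate 3, with 79 of 84 highest in cKO replicate 3. Malat1 and Neat1, RNAs kept in the nucleus, were low in the same library: they summed to 1638, 1642 and 1719 CPM in Ctrl and to 1983, 1966 and 679 CPM in cKO. The part of any of these in the mitochondrial and nuclear differences was not tested.

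Other genes of mitochondrial energy metabolism were taken from lists of known function, and none of their members passed without or with the block. Outside the name pattern, Cyc1, the haem-bearing subunit of complex III, was at 186, 196 and 229 CPM in Ctrl and at 161, 167 and 186 CPM in cKO, without overlap, though the lowest Ctrl and highest cKO values touched. It was lower in all 3 pairs (log2 fold change -0.24, limma adjusted p 0.883, 0.202 with the block). Cycs, which encodes cytochrome c, the electron shuttle to complex IV, was at 33.1, 39.5 and 35.1 CPM in Ctrl and at 36.5, 33.7 and 44.7 CPM in cKO. Of the 12 tested genes of the list of carriers and further subunits, 7 were lower in all 3 pairs (18.5% of all tested genes were) and 6 were lower without overlap (7.10% of all tested genes were), with a median of -0.15. The 6 were Coq7, Coq9, Cyc1, Dhodh, Etfdh and Nnt, named after their values were seen. Among tested genes with at least 10 CPM, grouped by transcript length, 15.9% to 24.9% were lower in all 3 pairs. The share lower without overlap ran from 6.78% to 11.4% there.

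The remaining lists moved little. Of 35 tested assembly factors outside the name pattern, 24 were lower (median -0.087), and of 24 genes for mitochondrial DNA replication and expression 19 were lower (median -0.11), where 59.0% of all tested genes were lower. Tfam, which packs mitochondrial DNA and starts its transcription, was at 69.1, 68.9 and 66.2 CPM in Ctrl and at 68.5, 62.6 and 75.1 CPM in cKO, with a log2 fold change of 0.010. The 18 tricarboxylic acid cycle genes had a median of -0.044 and the 77 mitochondrial ribosomal protein genes a median of -0.042. In the list of 14 tested regulators of mitochondrial biogenesis the median was 0.038. Ppargc1a, a coactivator of that programme, was at 17.8, 17.6 and 0 CPM in Ctrl and at 16.2, 15.1 and 0 CPM in cKO, so that it was at 0 in both replicate 3 libraries. Esrra, a nuclear receptor of respiratory genes picked after its values were seen, was at 23.3, 28.1 and 30.5 CPM in Ctrl and at 38.7, 38.6 and 37.9 CPM in cKO. Its groups did not overlap, and it did not pass (log2 fold change 0.49, limma adjusted p 0.314).

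The labelled cell type was checked against its markers. All 10 iNKT1 markers were present, summing to between 7834 and 9431 CPM in Ctrl and between 8403 and 11464 CPM in cKO, and none of the markers in these lists passed without the block. With the block the iNKT1 markers Ccl5 and Il2rb passed as higher in cKO (log2 fold changes 1.14 and 0.34, limma adjusted p 0.00078 and 0.0166), as did the iNKT2 marker Ccr4 (1.03, limma adjusted p 0.0115), and the iNKT2 marker Il4 passed as lower (-0.88, limma adjusted p 0.0081). These 4 are named after their values were seen. Summed markers of iNKT17 cells lay between 1.78 and 9.43 CPM over all libraries and those of double-positive thymocytes between 5.53 and 22.3 CPM. iNKT2 markers summed to between 360 and 550.4 CPM, chiefly Gata3 and Icos. B cell markers summed to between 366 and 468 CPM, nearly all of it Ighm, and myeloid markers to between 81.9 and 116 CPM, nearly all of it Cst3. The erythroid list (1 of 5 genes listed) stayed under 5 CPM and the epithelial and stromal list under 13 CPM. Immediate early and heat shock genes, a list for handling, summed to between 109 and 123 CPM in Ctrl and between 123 and 180 CPM in cKO. The part of these lists in the results was not tested.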

How the data were processed

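RNA from thymic iNKT1 cells of 3 Ctrl and 3 cKO samples was sequenced with reads of 75 bases. The submitters' processing notes name Trimmomatic 0.33, STAR 2.5.2, HTSeq 0.6.1, edgeR and build mm10. The authors deposited CPM per library, and per the file headers the authors also listed for each gene a log2 fold change and mean level, a score from their likelihood-ratio test, and p-values before and after adjustment. Every CPM value (100% in each library) was a whole multiple of 1 read within 0.01 reads, so reads were recovered.

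Genes averaging 1 CPM or more were fitted as log2(CPM + 1) on group alone, with limma's trend and robust options (limma 3.58.1, R 4.3.3), with Benjamini-Hochberg adjustment over all 15691 genes and a threshold of 0.05. Adjusted p-values come from limma except where stated otherwise. edgeR 4.0.16 and DESeq2 1.42.0 were run on recovered reads. The fit was tested on simulated data. With 3 against 3 libraries an exact permutation test cannot give less than p = 0.1, so none was used.

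Same-numbered libraries deviated together from their group means (correlations 0.86, 0.69 and 0.92). The numbers were taken to pair them, from the data and not the labels, and the replicate block was fitted as an alternative. Differently numbered libraries were not compared. Deviations cancel within a group and both replicate 3 libraries stood apart, so these correlations cannot establish a pairing of the other libraries.

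Lengths, windows and printed sequences come from GENCODE M21 transcripts on GRCm38 (mm10); all 96 members matched, and the mitochondrial members and the 5 chromosome 1 pseudogenes had the same positions there. A window counted as shared when it occurred letter for letter, on either strand, in a transcript of another gene; unannotated copies are not covered. mt-Atp8 and mt-Nd4l were not analysed here.

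The members and lists were chosen with earlier results of these data known. Named were all mitochondrial members, nuclear members past the threshold, the 6 highest per length, the highest and lowest fold per complex among genes of at least 10 CPM, Cox7b2, Cycs, Cyc1, Tfam, Ppargc1a and Tgfbr2; others are said to be picked later or illustrate a list.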

Additional observations from a re-analysis of the deposited data

How the results depend on the processing

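Against 104 genes called over the whole table, the count was 40 under edgeR's quasi-likelihood test, 552 under DESeq2, 291 in replicates 1 and 2 alone, 451 with the replicate block, 513 with the replicate block and TMM factors, and 469 with the replicate block in edgeR; without 1 library it ran from 14 to 85. Higher genes made up 32 of the 104 calls, 194 of 451 with the block and 265 of 513 with the block and TMM factors. The count of members called stayed at 1, mt-Nd3, in the fits on all libraries and in replicates 1 and 2 alone. It was 0 in each fit without 1 library. These fits had fewer libraries than the main fit, and the part of this in the count was not tested. The replicate block changed no other call among the members.

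The nuclear median of 0.065 turned to -0.029 in replicates 1 and 2 alone, and ran from -0.070 to 0.14 without 1 library. The mitochondrial median ran from -0.56 to -0.15 and the gap between the genomes from -0.70 to -0.076 without 1 library; both kept their sign in every fit.

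Genes near 0 changed sign, none past the threshold. In replicates 1 and 2 alone Sdhb was at -0.016, Cox4i1 at -0.0018, Cox6a1 at -0.040, Cox7a2 at -0.0078, Cox8a at -0.062 and Atp5b at -0.023. With TMM factors, with or without the replicate block, Uqcrfs1 was at 0.0039, Cox5a at 0.015 and Atp5a1 at 0.064. Under edgeR they were at 0.0013, 0.019 and 0.051, under DESeq2 at 0.0072, 0.026 and 0.056. Atp5a1 was at 0.043 with upper-quartile factors and at 0.043 under edgeR with the replicate block. Without 1 library the log2 fold change ran from -0.018 to 0.49 for mt-Co1, -0.10 to 0.15 for Sdhb, -0.19 to 0.010 for Uqcrfs1, -0.088 to 0.26 for Cox4i1, -0.20 to 0.033 for Cox5a, -0.077 to 0.16 for Cox6a1, -0.022 to 0.33 for Cox7a2, -0.071 to 0.15 for Cox8a, -0.072 to 0.046 for Atp5a1 and -0.088 to 0.068 for Atp5b. The cause was not tested. Read counts were low for mt-Nd3 in Ctrl and for Gm28438 in cKO, with 4 to 13 reads per library. Cox7b2 had 0 reads in both replicate 3 libraries, although these were the deepest of their groups.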
